A study of Homo sapiens with 2 samples.

Results

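Within cultures of the Ewing sarcoma cell lines CHLA9 and TC71, the 10% of cells with the highest level of 9 amino acid stress genes were compared with the other cells of the same culture. The 9 genes were ASNS, PSAT1, PHGDH, TRIB3, DDIT3, CHAC1, SESN2, SLC7A11 and DDIT4. Each cell was scored by the mean over these genes of ln(1 + UMIs per 10000 UMIs of the cell), where a UMI (unique molecular identifier) stands for 1 captured RNA molecule. The rule took 452 of 4524 kept cells in CHLA9 and 173 of 1729 in TC71, together 625 of 6253. These are called the high-score cells here, and the measured levels of the 9 genes chose them, so that those levels are a description and carry no test.

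Ewing sarcoma is a tumor of bone and soft tissue of the young, driven by a fusion of EWSR1 with an ETS gene, most often FLI1. The series profiled single cells by the 10x Genomics 3' assay. CHLA9 was grown in IMDM with 20% serum and TC71 in RPMI with 10% serum, both without treatment, so that the medium and the line cannot be told apart. There was 1 library of each line, cells of 1 culture are not replicates, and no p-value was computed. The report gives levels with 95% intervals that cover counting error only, and asks which differences were seen in both libraries.

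The integrated stress response links amino acid supply to translation and transcription. The kinase GCN2 senses uncharged tRNA and PERK senses unfolded protein in the endoplasmic reticulum (ER), and both phosphorylate the initiation factor eIF2, which lowers general translation while the mRNA of the transcription factor ATF4 is translated more. ATF4 acts as a dimer with C/EBP family proteins on genes for amino acid synthesis, amino acid import and tRNA charging, and on DDIT3, which encodes CHOP, a factor tied to cell death when stress persists.

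The libraries held 5077 barcodes and 178489774 UMIs in CHLA9, and 8468 barcodes and 75408445 UMIs in TC71. Barcodes under 5000 UMIs, under 2000 genes or over 15% mitochondrial UMIs were left out, which removed most TC71 barcodes, 5869 of them for too few UMIs. The libraries shared 16 barcode sequences, of which 3 were among the kept cells. High-score and other cells had like depth, with medians of 35701 and 34548 UMIs in CHLA9 and 34486 and 33222 in TC71. The median mitochondrial share was 7.27% in high-score against 7.63% in other CHLA9 cells, and 8.17% against 9.13% in TC71.

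The score had no gap at the limit. The last CHLA9 cell inside had a score of 0.296502 and the first outside 0.296492, and in TC71 these were 0.418644 and 0.418125. Within 0.01 of the limit lay 184 CHLA9 cells and 51 TC71 cells. Above the 99th percentile (0.457 in CHLA9, 0.671 in TC71) a thin tail ran out to 1.08 and 1.21. The high-score cells are therefore the upper end of a continuous range rather than a separate cluster, and the tail is treated on its own further on.

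**Figure D1:**
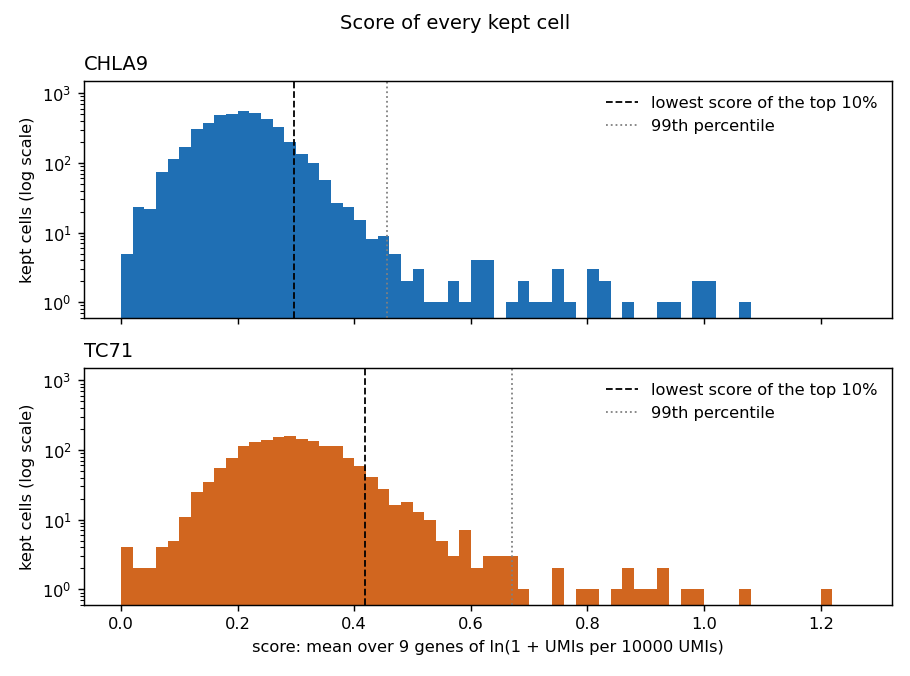
Number of kept cells (vertical axis, log scale) by the score of the 9 genes (horizontal axis, mean ln(1 + UMIs per 10000)) in CHLA9 and TC71, with the limit of the top 10% marked. The counts fall smoothly through the limit, and a few cells spread beyond the 99th percentile.

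The levels that chose the cells are given first, as CPM (summed UMIs of the gene per 1000000 UMIs of the same cells), by the role of the gene. Among synthesis enzymes, ASNS, asparagine synthetase, stood at 48.0 CPM in high-score and 12.2 in other CHLA9 cells, and at 123 and 41.5 in TC71. PHGDH, which opens serine synthesis from a glycolytic intermediate, stood at 246 and 134 CPM in CHLA9 and 321 and 204 in TC71. PSAT1, the next enzyme of that path, stood at 188 and 99.0 CPM in CHLA9 and 207 and 101 in TC71. PHGDH and PSAT1 were abundant in all cells, and their ratios, 1.57 to 2.06, were among the lowest of the 9.

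In the CHOP arm, DDIT3 stood at 24.1 against 5.56 CPM in CHLA9 and 59.8 against 11.0 in TC71. TRIB3, a pseudokinase that CHOP and ATF4 raise, stood at 7.79 against 2.34 CPM and 26.8 against 13.7. CHAC1, which breaks down glutathione, stood at 6.47 against 0.374 CPM in CHLA9 and 8.38 against 0.878 in TC71. CHAC1 was the scarcest and the most concentrated of the 9: the high-score cells held 65.5% of its UMIs in CHLA9 and 52.1% in TC71, on 112 and 50 UMIs.

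The last 3 genes bear on cystine import and on mTORC1. SLC7A11, the cystine and glutamate exchanger, stood at 36.4 against 7.07 CPM in CHLA9 and 52.1 against 18.3 in TC71. SESN2, a leucine-sensing inhibitor of mTORC1, stood at 18.5 against 3.72 and 13.7 against 5.12 CPM. DDIT4, also called REDD1, another mTORC1 inhibitor that hypoxia raises too, stood at 24.4 against 6.34 and 77.6 against 17.8 CPM. All 9 genes were thus higher in the chosen cells of both lines, which the rule itself favours.

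**Figure D2:**
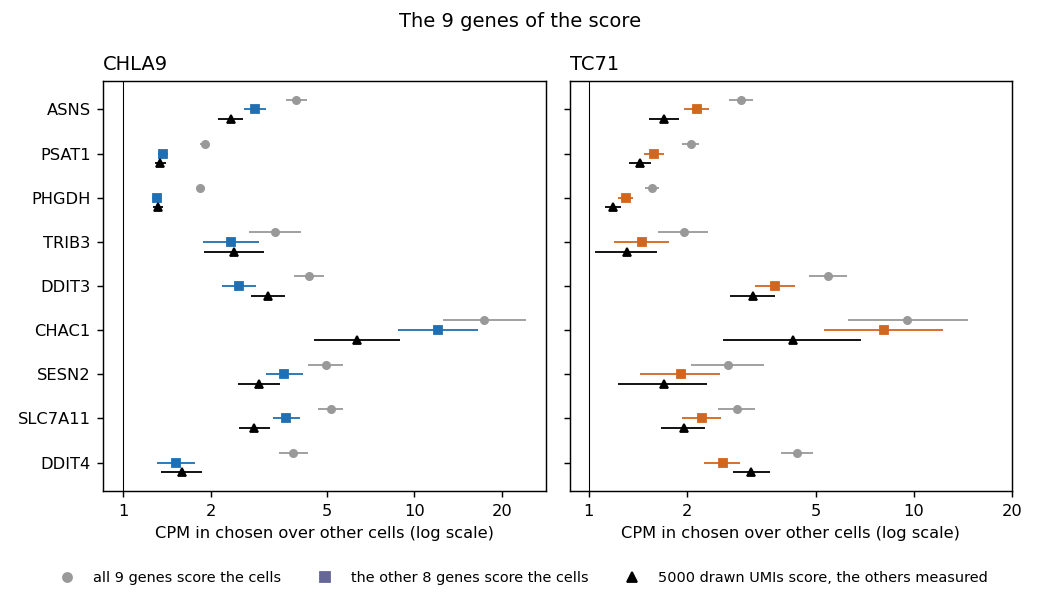
Ratio of each of the 9 genes in high-score over other cells (log axis), by the full rule, with cells chosen by the other 8 genes, and with the score and the level taken from different UMIs of each cell. Bars are 95% counting intervals, and every ratio lies above 1, with those outside the full rule lower in each library.

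Whether the 9 genes moved with each other was read by choosing the cells anew with the other 8 genes, so that a gene's own UMIs played no part. Each of the 9 remained higher in both libraries. CHAC1 was 12.0-fold higher in CHLA9 (8.77 to 16.5) and 8.06-fold in TC71 (5.28 to 12.3). DDIT3 was 2.50-fold (2.18 to 2.86) and 3.74-fold (3.24 to 4.31), and ASNS 2.83-fold (2.59 to 3.09) and 2.15-fold (1.96 to 2.35). PHGDH was nearest to even, at 1.30-fold in both. These cells share UMI totals and phases with those the full rule took, so the ratios are a description and not an independent sample.

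In the stricter reading, the score was taken from 5000 UMIs drawn from each cell and the levels from the UMIs not drawn. DDIT3 was then 3.14-fold higher in CHLA9 (2.74 to 3.59) and 3.19-fold in TC71 (2.72 to 3.74). CHAC1 was 6.34-fold (4.50 to 8.90) and 4.26-fold (2.59 to 6.88), and the lowest values were 1.31 for PHGDH in CHLA9 and 1.19 (1.12 to 1.26) for PHGDH in TC71. All 9 genes kept intervals above 1 in both libraries. The choice of single cells was less stable than these averages, since 176 of the 452 CHLA9 cells and 79 of the 173 TC71 cells were also taken on the drawn UMIs.

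The arms of the score were then set against one another. Cells in the top 10% for ASNS, PSAT1 and PHGDH alone had 2.60-fold more CHOP arm UMIs in CHLA9 (2.33 to 2.90) and 2.44-fold more in TC71 (2.18 to 2.72). Cells in the top 10% for SLC7A11, SESN2 and DDIT4 had 3.54-fold more CHOP arm UMIs in CHLA9 (3.21 to 3.91) and 2.49-fold more in TC71. Cells chosen by the CHOP arm had 1.21-fold more of the synthesis enzymes in CHLA9 (1.17 to 1.24) and 1.26-fold more in TC71 (1.21 to 1.32). In every pairing of arms the ratio was above 1 in both libraries, with the smallest values where the abundant synthesis enzymes were the readout.

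Most high-score cells were not high for all arms at once, and the share that unrelated arms would give was not computed. Of the high-score cells, 41 (9.07%) in CHLA9 and 22 (12.7%) in TC71 lay in the top 10% for each of the 3 arms. Most, 281 (62.2%) and 98 (56.6%), lay in the top 10% of 1 arm, and 23 and 11 cells in none.

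Across all other genes, 5383 genes with at least 20 CPM over the kept cells of both libraries were compared, and a gene was called where it was at least 25% higher, or at least 20% lower, in high-score than in other cells of both libraries. In both libraries 15 genes, or 0.279%, were higher and 2, or 0.0372%, were lower. With the score and the levels taken from different UMIs, 4 of the 15 (ATF5, CARS, FYN and UBALD2) and 0 of the 2 were called. Each library alone gave more calls, with 57 genes (1.06%) higher and 7 (0.130%) lower in CHLA9, and 54 (1.00%) higher and 52 (0.966%) lower in TC71. The median tested gene differed by 0.0028 in CHLA9 and -0.0088 in TC71 on the log2 scale, so that the scale itself was level between the groups of cells.

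Of the 15 genes, 11 belonged to 6 lists of ATF4-related genes: ATF4 and its bZIP partners, serine and one-carbon enzymes, proline and other amino acid enzymes, amino acid transporters, cytosolic tRNA synthetases, and other ATF4 and CHOP targets. These lists hold 100 genes outside the rule, of which 55 were abundant enough to compare, and 20.0% of the 55 were called against 0.0751% of the 5328 tested genes outside the lists. Fewer genes were called with the score and the levels taken from different UMIs. These were ATF5 and CARS in the lists, and FYN and UBALD2 outside them. The lists were drawn up with earlier results of these data known, and no test was made.

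**Figure D3:**
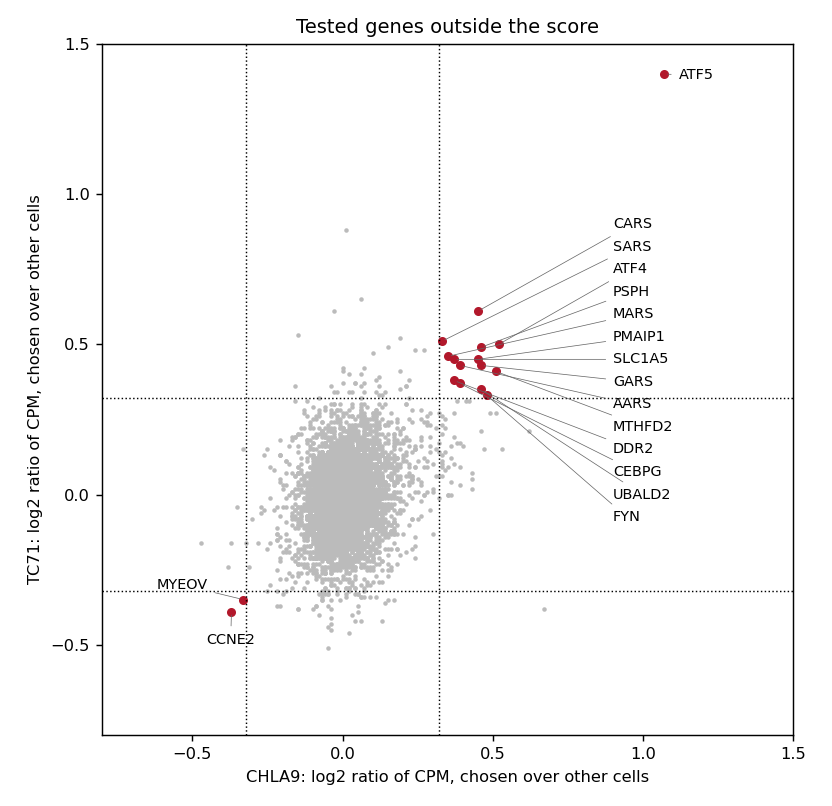
Log2 ratio of high-score over other cells in CHLA9 (horizontal axis) and TC71 (vertical axis) for the 5383 tested genes, with the 15 genes called higher and the 2 called lower in both libraries marked. Most genes lie near 0 in both, and ATF5 lies apart at 1.07 and 1.40.

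ATF5 and ATF4 led the transcription factors. ATF5 (ENSG00000169136, chromosome 19 from 49928702 to 49933935), a bZIP factor whose translation eIF2 phosphorylation also favours, stood at 45.6 CPM in high-score and 21.8 in other CHLA9 cells, a 2.09-fold difference (1.93 to 2.26). In TC71 it stood at 62.8 and 23.8 CPM, 2.64-fold (2.34 to 2.96). ATF4 (ENSG00000128272, chromosome 22 from 39519695 to 39522683) stood at 165 and 115 CPM in CHLA9, 1.43-fold (1.38 to 1.49), and at 181 and 129 in TC71, 1.41-fold. The response acts on the translation of ATF4, whereas these values are its RNA, and its protein was not measured here.

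Both factors were higher whichever arm of the score chose the cells. With cells chosen by ASNS, PSAT1 and PHGDH, ATF5 was 2.10-fold higher in CHLA9 (1.94 to 2.27) and 2.64-fold in TC71 (2.34 to 2.97). With the CHOP arm it was 2.06-fold (1.90 to 2.24) and 2.32-fold (2.04 to 2.63). With SLC7A11, SESN2 and DDIT4 it was 1.90-fold (1.76 to 2.06) and 1.85-fold (1.62 to 2.11). ATF4 lay between 1.30 and 1.37 in CHLA9 and between 1.24 and 1.39 in TC71 over the 3 choices. Many of these cells are high-score cells by the full rule as well. They were 293 of 452 in CHLA9 and 111 of 173 in TC71 for the synthesis enzymes, 122 and 64 for the CHOP arm, and 203 and 73 for SLC7A11, SESN2 and DDIT4.

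CEBPG, a small C/EBP protein that pairs with ATF4, was the third called bZIP gene, at 1.31-fold in CHLA9 (49.1 against 37.4 CPM) and 1.29-fold in TC71 (45.7 against 35.4). CEBPB missed the threshold in CHLA9, at 1.14 against 1.44 in TC71. The lowest of the 8 tested bZIP genes were MAFG, at 0.924 and 1.01, and NFE2L2. The list of 11 bZIP genes summed to 1.23-fold in CHLA9 (1.21 to 1.26) and 1.35-fold in TC71 (1.30 to 1.39), and the median tested member had a log2 ratio of 0.18 and 0.39.

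Scarce bZIP genes lay outside the comparison and are given from the fixed list. ATF3, an immediate stress factor, was 5.66-fold higher in CHLA9 (3.83 to 8.28) and 2.71-fold in TC71 (2.08 to 3.50). JDP2, a repressor that dimerizes with other bZIP factors, was 3.76-fold and 2.43-fold higher. Both were under the floor of 20 CPM, so these ratios rest on few molecules.

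Among serine and one-carbon enzymes, PSPH and MTHFD2 were called. PSPH, which releases serine in the last step of its synthesis and follows PHGDH and PSAT1, stood at 41.2 against 30.0 CPM in CHLA9 and 41.9 against 29.9 in TC71, ratios of 1.37 and 1.40, though a pseudogene copy, PSPHP1, can share its reads. MTHFD2, a mitochondrial folate enzyme, stood at 132 against 92.9 CPM and 256 against 192, ratios of 1.42 and 1.33. SHMT2, which feeds serine carbon into that folate pool, was next at a log2 ratio of 0.22 in CHLA9 and 0.32 in TC71. The cytosolic enzyme MTHFD1 was at 0.957 and 0.873, and MTHFD2L, a mitochondrial relative of MTHFD2, at 0.930 and 0.912. The 6 tested members had a median log2 ratio of 0.25 in CHLA9 and 0.22 in TC71, and the list of 11 summed to 1.14-fold and 1.18-fold.

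None of the 9 tested proline, transaminase and other amino acid enzymes was called. GOT1, the cytosolic aspartate transaminase, was at 1.18 and 1.39, PYCR1, which makes proline in mitochondria, at 1.20 and 1.18, and BCAT1, a branched-chain transaminase, at 1.16 and 1.12. GOT2, the mitochondrial partner of GOT1, was lowest, at 1.01 and 0.825. The list summed to 1.08-fold and 1.12-fold. PCK2, a mitochondrial enzyme that makes phosphoenolpyruvate, is a list member below the floor, at 7.39 against 2.16 CPM in CHLA9, a ratio of 3.43 (2.77 to 4.21), and 23.0 against 7.44 in TC71, a ratio of 3.08 (2.52 to 3.76).

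Of the 6 tested amino acid transporters, 5 were above even in both libraries. SLC1A5, the glutamine carrier, was the called member, at 80.6 against 62.4 CPM in CHLA9 and 78.9 against 57.7 in TC71, ratios of 1.29 and 1.37. SLC38A1, another glutamine carrier, was at 1.54 and 1.16, and SLC7A1, the arginine and lysine carrier, at 1.41 and 1.21. SLC7A5, which carries large neutral amino acids, was at 0.978 in CHLA9 (395 against 404 CPM) and 1.52 in TC71 (42.4 against 27.9). SLC3A2, the shared heavy chain of SLC7A5 and SLC7A11, was at 1.04 in CHLA9 (599 against 576 CPM) and 1.56 in TC71 (119 against 75.9). The heavy chain and its large neutral partner were thus past the threshold in TC71 only, and their level in CHLA9 cells was several times that in TC71 cells in both groups. Whether the lines differ in this was not tested, with 1 library each. By mean log2 ratio SLC38A2 was the lowest of the 6, at 1.08 and 1.13, and SLC7A5 the next.

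Cytosolic tRNA synthetases, which load amino acids onto tRNAs, gave the most calls of any list, with 5 of 20 tested. The share called was larger among bZIP genes, 3 of 8, and serine and one-carbon enzymes, 2 of 6. CARS, for cysteine, stood at 51.1 against 37.4 CPM in CHLA9 and 59.5 against 39.0 in TC71, ratios of 1.37 (1.27 to 1.47) and 1.53. GARS, for glycine, stood at 137 against 99.8 and 188 against 139.9 CPM, ratios of 1.37 and 1.34. SARS, for serine, stood at 75.1 against 59.6 and 206 against 145 CPM, ratios of 1.26 and 1.43. AARS, for alanine, was at 1.31 and 1.35, and MARS, for methionine, at 1.28 and 1.37. The called enzymes load glycine, serine, cysteine, alanine and methionine.

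The synthetases did not move as a block. TARS, at 1.33 and 1.24, lay just outside the threshold, while KARS, for lysine, was at 0.955 and 0.996 and RARS, for arginine, at 0.966 and 1.04. Over the 20 genes, 14 were above even in both libraries and 1 below in both. The list summed to 1.11-fold in CHLA9 (1.09 to 1.12) and 1.15-fold in TC71 (1.14 to 1.17). The mitochondrial tRNA synthetases, encoded by other nuclear genes in most cases, summed to 0.991-fold and 0.950-fold with none of 7 tested members called. CARS2, the mitochondrial cysteine enzyme, was at 0.950 and 1.04 where its cytosolic counterpart CARS was called, and NARS2, at 0.918 and 0.899, and IARS2 were lowest. Both sets were measured in the same cells, and the higher level was seen for the cytosolic set.

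Among other ATF4 and CHOP targets, none of 6 tested members was called. GADD45A, a stress gene of growth arrest, had the highest mean ratio, with log2 ratios of 0.32 in CHLA9 and 0.27 in TC71. EIF4EBP1, a repressor of cap-dependent translation, was at 1.22-fold and 1.18-fold, and TNFRSF10B, a death receptor, at 1.09-fold and 1.22-fold. RHOQ was at 1.10 and 0.926, and ERO1A, an ER oxidase, at 0.970 and 0.874. Most of the list, 17 of 23 genes, was too scarce to compare. It summed to 1.19-fold and 1.20-fold, with NUPR1 at 3.96-fold and 12.3-fold on 20 and 7 UMIs and ADM2 at 1.93-fold and 2.46-fold.

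The 4 called genes outside these lists were PMAIP1, DDR2, UBALD2 and FYN. PMAIP1, which encodes the pro-death BH3 protein NOXA, stood at 72.3 against 52.8 CPM in CHLA9 and 89.8 against 65.9 in TC71, ratios of 1.37 and 1.36. DDR2, a collagen receptor kinase, stood at 145 against 112 and 58.3 against 44.7 CPM, ratios of 1.29 and 1.31. UBALD2 was at 1.38 and 1.27. FYN, a kinase of the SRC family, stood at 41.9 against 30.1 CPM and 34.3 against 27.4. PMAIP1 is also a p53 target, and no other member of the p53 list was called, though 13 of its 18 genes were too scarce to compare. The list, PMAIP1 included, summed to 1.02-fold in both libraries. MDM2, the p53 ligase, was at 0.994 and 1.00, CCNG1 at 0.963 in TC71, and BAX and XPC were lowest.

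Just outside the threshold lay TRAK2, at 1.30 and 1.24, TARS, and CDCA3, at 1.34 and 1.24. FYN, the last inside, had a log2 ratio of 0.33 in TC71. The intervals of FYN, 1.08 to 1.45 in TC71, and of CDCA3, 1.06 to 1.43, overlapped, so that the order near the threshold is within counting error.

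Promoters of the rule genes and of the genes called higher were searched for TGATGNAA on either strand. This is the form of the C/EBP-ATF response element that ATF4 dimers bind. The genes called lower had no promoter in the set used and were not searched. RefSeq gene starts on GRCh38.p14 were used, with 250 bases before and 50 after each start, and a gene can have several starts. Of the 8 rule genes in the promoter table, 2 held a match (25.0%), ASNS and CHAC1. Of the 14 genes called higher that it holds, 7 did, against 115 of 4498 tested genes (2.56%) and 1217 of all 27305 genes (4.46%). A match is a run of letters and not a measured binding site, and many of these genes were put on the lists as known ATF4 targets. The matches are shown because they are a feature of some called genes that the rule did not use, each as 30 bases read on the strand of the gene with the match in capitals.
ASNS, chr7:97872458-97872487, minus strand: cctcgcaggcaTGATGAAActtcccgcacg
CHAC1, chr15:40953251-40953280, plus strand: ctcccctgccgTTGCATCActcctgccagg
CARS, chr11:3057407-3057436, minus strand: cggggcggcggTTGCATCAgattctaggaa
GARS, chr7:30594834-30594863, plus strand: ttacgcggcgaTTTCATCAtgctccgagcc
AARS, chr16:70289675-70289704, minus strand: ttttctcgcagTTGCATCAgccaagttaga
CEBPG, chr19:33374060-33374089, plus strand: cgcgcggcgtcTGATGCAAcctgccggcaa
DDR2, chr1:162632463-162632492, plus strand: tcaaaggcatcTTGCATCAgcctgtggatg
SLC1A5, chr19:46784893-46784922, minus strand: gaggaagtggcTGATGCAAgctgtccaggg
MARS, chr12:57488053-57488082, plus strand: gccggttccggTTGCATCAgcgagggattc

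The matches of ASNS and CHAC1 began 68 and 209 bases before a RefSeq start, and those of CARS, MARS and GARS 2, 4 and 33 bases before one. CEBPG, SLC1A5 and AARS had theirs 42, 97 and 187 bases before a start, and DDR2 10 bases after one. Against the canonical GENCODE 44 transcripts, the matches of CARS, DDR2 and MARS lie in an untranslated exon, those of CEBPG and SLC1A5 in an intron, and those of ASNS, CHAC1, GARS and AARS outside the transcript. Over all annotated transcripts of each gene, every match but that of CEBPG lies in an exon, and none lies in coding sequence. Of the called synthetases, SARS held no match in these windows, nor did ATF4 and ATF5, which says only that these letters are not there.

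CCNE2 and MYEOV were the genes called lower. CCNE2, the cyclin E2 that acts at entry to S phase, stood at 30.4 against 39.5 CPM in CHLA9, a ratio of 0.771 (0.704 to 0.843), and at 32.0 against 41.9 in TC71, a ratio of 0.763 (0.655 to 0.885). MYEOV stood at 41.7 against 52.2 CPM, a ratio of 0.798 (0.738 to 0.861), and at 29.7 against 37.7, a ratio of 0.786 (0.670 to 0.917). The genes next below the threshold included UNG, at 0.769 and 0.844, and CDC6, at 0.844 and 0.812, both of DNA replication and repair.

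The other stress programs given next held no gene called in both libraries, though several of their lists differed from even. The ER chaperones and the ATF6 and IRE1 arms of the unfolded protein response summed to 0.964-fold in CHLA9 (0.955 to 0.973) and 0.972-fold in TC71 (0.957 to 0.988), with none of 16 tested genes called. XBP1, the factor that IRE1 splices, was at 1.15 and 1.17, and ATF6 at 1.10 and 1.04. HSPA5, the ER chaperone BiP, was at 0.973 and 0.927, and SDF2L1 and PDIA6 were the lowest members, PDIA6 at 0.939 and 0.911. HERPUD1, which acts in ER-associated degradation and lies below the floor in CHLA9, was at 1.60 in both. The direction turned when the CHOP arm alone chose the cells, with the ER list at 1.05 in CHLA9 (1.04 to 1.06) and 1.02 in TC71 (1.01 to 1.04).

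The kinases, subunits and phosphatases of eIF2 summed to 1.04-fold and 1.05-fold, led by EIF2S2 at 1.17 and 1.13, with none of 12 tested genes called. NRF2 targets, the antioxidant program that shares SLC7A11 with ATF4, summed to 1.00-fold and 1.05-fold, and none of 11 tested genes was called. TXNRD1, thioredoxin reductase, led them at 1.02 and 1.09, with the ferritin chains FTH1 and FTL at 1.08 in TC71, and TXN and PRDX1 were lowest. In these cells, chosen in part by SLC7A11, the antioxidant list was thus level in CHLA9 (0.999 to 1.01) and slightly above even in TC71 (1.04 to 1.06).

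Heat shock genes summed to 0.996-fold in CHLA9 and 0.891-fold in TC71, with 9 tested and none called. HSP90AB1 was the highest by mean, at 0.975 in TC71, and HSP90AA1 and DNAJA1 the lowest, at 0.846 and 0.835 in TC71. Genes of cholesterol synthesis and uptake summed to 0.971-fold in both, with 8 tested and none called. FDFT1, squalene synthase, was at 0.986 and 1.09, and MSMO1 and IDI1 were lowest, MSMO1 at 0.879 and 0.821.

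Hypoxia and glycolysis genes summed to 1.01-fold in CHLA9 and 1.12-fold in TC71, with none of 9 tested called in both. BNIP3, a mitophagy receptor that hypoxia raises, led that list at 1.00 in CHLA9 (56.5 against 56.2 CPM) and 1.84 in TC71 (146 against 79.7). BNIP3L, its relative, was at 0.988 and 1.21, and MXI1 at 1.11 and 1.08. The glycolytic enzymes TPI1, at 1.02 and 0.999, and PKM were lowest.

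The hypoxia list was above even with each arm of the score in TC71. Its ratio was 1.05 (1.04 to 1.06) in cells chosen by the synthesis enzymes, 1.07 (1.05 to 1.08) by the CHOP arm and 1.27 (1.26 to 1.28) by SLC7A11, SESN2 and DDIT4. In CHLA9 the values were 1.02, 0.987 and 0.990 in the same order. DDIT4 is a hypoxia gene as well, and its part in the TC71 choice was not tested.

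**Figure D4:**
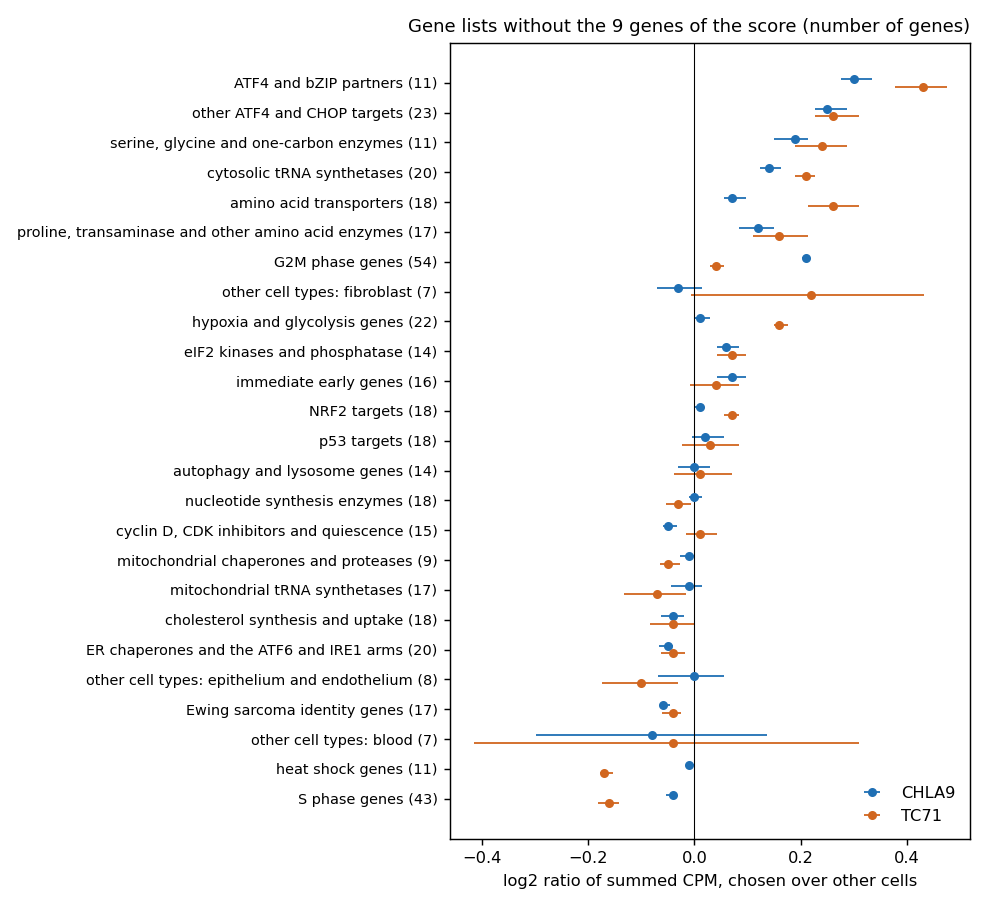
Log2 ratio of the summed level of each gene list in high-score over other cells, for CHLA9 and TC71, with 95% counting intervals. ATF4 with its bZIP partners is highest, at 0.30 and 0.43, and the ER list lies just below 0, at -0.05 and -0.04.

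Markers of the tumor and of other cells were checked. Ewing sarcoma identity genes summed to 0.962-fold and 0.971-fold, with EWSR1 at 0.987 and 0.978, FLI1 at 1.00 and 0.933, and NR0B1, a target of the fusion, at 0.947 and 0.797. KDSR was the highest of the 11 tested, at 1.06 and 1.04, and STEAP1, next to NR0B1 at the low end, was at 0.903 and 0.957. Blood markers were near 0 in all groups, at 11.2 against 11.8 CPM in CHLA9 and 11.9 against 12.2 in TC71, over 7 genes. Fibroblast markers summed to 322 against 329 CPM in CHLA9 and 32.8 against 28.3 in TC71, and markers of epithelium and endothelium to 126 in both groups of CHLA9 and 287 against 308 in TC71. No list of another cell type was past the threshold in the high-score cells.

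Phases of the cell cycle moved with the score in both lines, towards G2M in CHLA9 and away from S in TC71, with no test between the lines. By phase scoring, 50.2% of high-score CHLA9 cells were in G2M (45.5 to 54.9) against 38.4% of the others (36.9 to 39.9), and 16.4% (13.1 to 20.1) against 23.4% in G1. In TC71, 36.4% of high-score cells were in S (29.2 to 44.1) against 49.9% (47.4 to 52.4), and 19.7% (14.0 to 26.4) against 11.1% (9.60 to 12.8) in G1. G2M genes summed to 1.16-fold in CHLA9 and 1.03-fold in TC71 with 42 of 52 above even in both, and S phase genes to 0.970-fold and 0.894-fold with 26 of 41 below even in both. Genes of these lists also scored the phases, so their levels restate the shares and are no separate evidence. AURKA, a mitotic kinase, was at 1.38 and 1.11 and PSRC1, of the spindle, at 1.45 and 1.11, while DTL, of replication control, was at 0.723 and 0.897. The part of the phases in the calls was read by taking the top 10% within each phase: 14 genes were then higher in both libraries, 13 of them among the 15, and none lower. CCNE2 is among the S phase genes that scored the phases, so that it was not called within them is in part built in.

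Within phases, ATF5 was higher in each, with the cells here being the top 10% by score chosen anew in each phase. In CHLA9 it was 1.87-fold higher in G1 (1.54 to 2.26), 1.22-fold in S (1.02 to 1.45) and 2.96-fold in G2M (2.68 to 3.26). In TC71 it was 5.41-fold higher in G1 (4.06 to 7.16) on 21 such cells, 1.84-fold in S and 2.42-fold in G2M (2.02 to 2.89). ATF4 ranged from 1.22 to 1.59 in CHLA9 and from 1.24 to 1.42 in TC71 over the phases. FYN and UBALD2 did not hold in every phase, with FYN at 0.941 in G1 of CHLA9 and UBALD2 at 0.787 there and 0.892 in G1 of TC71. In G1 of CHLA9 the level of UBALD2 was under the floor of 20 CPM, at 14.7 against 18.7. CCNE2, most abundant in S, was nearer to even there, at 0.937 in CHLA9 (0.853 to 1.03) and 0.912 in TC71 (0.779 to 1.06). Since CCNE2 is one of the genes that scored the phases, its levels by phase are not independent of them. CCNE2 was at 0.834 (0.595 to 1.14) and 1.02 in G1, and at 0.701 and 0.758 in G2M. Its level was under the floor of 20 CPM in G2M of both lines and in G1 of CHLA9.

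Much of the ATF5 difference of CHLA9 lay in few cells, and less of that of TC71. The top 1% by score, 45 CHLA9 and 17 TC71 cells, were set against the 90% of cells that are not high-score, a comparison added after the tail had been seen. ATF5 stood at 214 CPM in the 45 CHLA9 cells against 21.8, 9.82-fold (8.83 to 10.9), and at 179 CPM in the 17 TC71 cells against 23.8, 7.53-fold (6.12 to 9.18). Those 45 cells gave 398 of the 790 ATF5 UMIs of the high-score CHLA9 cells. In the remaining 407 high-score CHLA9 cells ATF5 was at 25.4 CPM, 1.16-fold (1.05 to 1.29), and in the remaining 156 of TC71 at 49.9 CPM, 2.09-fold (1.83 to 2.39).

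ATF4 had smaller ratios in the tail than ATF5. It stood at 328 CPM in the top 1% of CHLA9, 2.86-fold, and at 145 CPM, 1.26-fold (1.21 to 1.32), in the remaining high-score cells. In TC71 it was 1.98-fold (1.68 to 2.33) and 1.35-fold (1.26 to 1.44). With the cells ordered by score and cut into 10 equal bins, ATF4 went from 108 CPM in the lowest bin to 121 in the ninth and 165 in the high-score cells of CHLA9, and from 102 to 162 and 181 in TC71. ATF5 stayed between 19.9 and 24.5 CPM over the lower 9 bins in CHLA9, and in TC71 it went from 15.8 CPM in the lowest bin to 29.5 in the ninth. In TC71 both factors were thus higher towards the upper bins outside the high-score cells as well, while in CHLA9 both changed little below them.

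**Figure D5:**
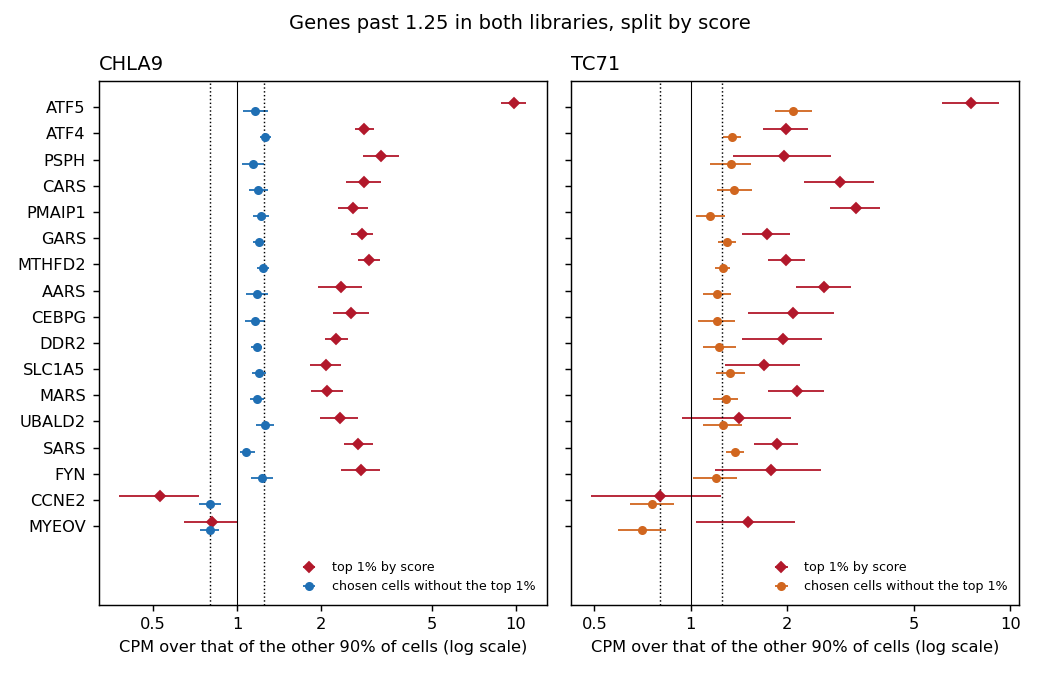
Ratio to the other 90% of cells of the genes called in both libraries, for the top 1% of cells by score and for the remaining high-score cells, in CHLA9 and TC71 (log axis, 95% counting intervals). ATF5 reaches 9.82 and 7.53 in the top 1%, and most genes lie nearer to even in the remaining cells.

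Without the top 1%, 4 genes were higher in both libraries in place of 15, namely ATF4, UBALD2, CDCA3 and PIF1, of which the first 2 are among the 15. The genes lower were CCNE2 and MYEOV in both settings. In the top 1% itself CCNE2 was at 0.531 in CHLA9 (0.377 to 0.727) and 0.800 in TC71 (0.488 to 1.24), and MYEOV at 0.813 and 1.51 (1.04 to 2.12), so that the lower MYEOV level in TC71 lay outside the tail. CARS went from 2.84-fold in the top 1% of CHLA9 to 1.19-fold in the remaining cells, and from 2.93-fold to 1.37-fold in TC71. MTHFD2 went from 2.98-fold to 1.24-fold and from 1.99-fold to 1.26-fold, and PMAIP1 from 2.60-fold to 1.22-fold and from 3.29-fold to 1.15-fold. Each of the 15 genes stayed above even in the remaining cells of both libraries, at 1.08 or more.

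In the top 1%, 10 genes, or 0.186% of those tested, were past 2-fold in both libraries, and 1 gene, or 0.0186%, was under the inverse of that. The genes were chosen after their values were seen. Of the 10, 7 are in the ATF4-related lists: ATF5, CARS, AARS, MARS, CEBPG, JUN and FAM129A. JUN, a bZIP factor of the AP-1 family, stood at 95.1 against 46.6 CPM in CHLA9 and 87.2 against 41.2 in TC71. FAM129A, also known as niban, stood at 53.7 against 20.4 and 50.3 against 25.0 CPM. The others were PMAIP1, PNRC1, at 68.3 against 25.8 and 107 against 42.5 CPM, and C6orf48, at 254 against 116 and 92.2 against 37.4 CPM.

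Scarce ATF4 targets were high in these cells. ATF3 was 32.1-fold higher in CHLA9 (20.0 to 50.1), on 28 UMIs, and 9.27-fold in TC71 (5.99 to 13.8). PCK2 was 15.7-fold higher (33.9 against 2.16 CPM) and 10.8-fold higher (80.5 against 7.44). PPP1R15A, the stress-induced subunit that directs dephosphorylation of eIF2, stood at 34.9 against 11.7 CPM and 31.9 against 6.66. The bZIP list summed to 2.45-fold and 2.08-fold, serine and one-carbon enzymes to 1.65-fold and 1.59-fold, cytosolic tRNA synthetases to 1.46-fold and 1.39-fold, and their mitochondrial counterparts to 0.933-fold and 0.972-fold.

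Protein folding and sterol genes were lower in the top 1% of both lines. HSPA1A, the inducible HSP70, was the gene under the inverse of 2, at 12.4 against 32.0 CPM in CHLA9 and 20.1 against 62.7 in TC71, on 23 and 12 UMIs. Its near-identical copy HSPA1B can take some of its reads, which makes its level uncertain. HSPA5 stood at 114 against 168 CPM and 126 against 248. ER chaperones summed to 0.835-fold in CHLA9 (0.810 to 0.860) and 0.801-fold in TC71 (0.760 to 0.843). Cholesterol synthesis and uptake summed to 0.714-fold (0.677 to 0.751) and 0.700-fold (0.632 to 0.772), with HMGCS1, which commits acetyl units to the path, at 26.9 against 44.8 CPM and 16.8 against 31.4. Other lists also moved in these cells. Immediate early genes summed to 1.37-fold in CHLA9 and 1.31-fold in TC71, p53 targets to 0.991-fold and 1.39-fold, hypoxia genes to 0.953-fold and 1.28-fold, heat shock genes to 0.786-fold and 0.825-fold, and epithelial and endothelial markers to 0.871-fold and 0.577-fold.

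Phase and depth of the top 1% rest on few cells. In CHLA9, 57.8% of the 45 cells were in G2M, 20.0% in S and 22.2% in G1. The cells that are not high-score had 38.4%, 38.1% and 23.4%. Median UMIs were 38258 against 34548. In TC71, 35.3% of the 17 cells were in G1, 29.4% in S and 35.3% in G2M. The cells that are not high-score had 11.1%, 49.9% and 39.0%. Median UMIs were 30525 against 33222. S phase genes summed to 0.831-fold and 0.829-fold, and Ewing sarcoma identity genes to 0.862-fold and 0.870-fold. Blood markers lay at 18 and 4 UMIs, too few for a firm ratio. The part of phase and depth in the top 1% was not tested.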

How the data were processed

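Single-cell RNA of CHLA9 and TC71, 1 library of each, was measured by the 10x Genomics 3' assay, and CHLA9 was sequenced on 2 instruments. The authors aligned reads to hg38 and counted UMIs with Cell Ranger 3.1.0. They deposited raw counts for 33538 genes, with no normalization. The annotation release is not given in the sources used here.

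The cell filters were a minimum of 5000 UMIs and of 2000 genes and a maximum of 15% mitochondrial UMIs, and doublets were not removed. Levels are summed UMIs as CPM. Ratios have exact conditional binomial (Clopper-Pearson) 95% intervals, and shares have Clopper-Pearson intervals, from scipy 1.17.1 in python 3.11.15. Phases were scored with Seurat 5.3.0 in R 4.3.3 on genes in at least 10 kept cells. Arrays and tables used numpy 2.4.6 and pandas 2.3.3, and plots matplotlib 3.10.9. The random seed was 1. The scripts were tested on simulated data.

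No test was made, since each line has 1 library. Members and gene lists were chosen with earlier results of these data known. The text names the 15 called higher genes with the largest smaller ratio, likewise the lower ones, ATF4, the genes opposite between lines, and in each described list the 3 tested genes highest and the 2 lowest by mean log2 ratio. Some genes that this rule names are not reported here. Others were added after their values were seen, such as UNG, CDC6, HSPA5, SLC3A2, NUPR1 and the genes of the top 1%. 1 list gene had no match. Gene positions were looked up by identifier in GENCODE 44 (GRCh38), and promoters came from RefSeq without those of chromosome 8. Alternatives covered the share of cells, filters, depth, phase, the genes of the score, the call and the floor.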

Additional observations from a re-analysis of the deposited data

Results flagged for a closer look

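CNTNAP2, a neuronal adhesion gene, was past the threshold of a call in opposite directions in the lines. In high-score CHLA9 cells it stood at 38.5 against 24.2 CPM, a log2 ratio of 0.67, and in TC71 at 16.8 against 21.8 CPM, a log2 ratio of -0.38. It was the only tested gene of that kind, and whether the lines differ was not tested.

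The 9 genes were also read in barcodes that the filters left out, per 1000000 nuclear-encoded UMIs. In CHLA9 barcodes with over 15% mitochondrial UMIs they summed to 315 (287 to 345), against 328 in kept cells. In TC71 they summed to 519.8 (504 to 536) in barcodes with under 5000 UMIs and to 537 (515 to 559.6) in those with over 15% mitochondrial UMIs, against 508 in kept cells. SLC7A11 was higher in the latter, at 95.3 against 23.9. These signals stand out only in that data outside the comparison hold them.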

How the results depend on the processing

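No paired analysis was possible because CHLA9 and TC71 are single libraries, and no test was run. Values below are log2 ratios averaged over the 2 libraries unless they are counts, and the settings without the top 1% of cells were added after the data had been seen. The 15 genes higher became 37 with the top 5% of cells, 4 with the score from drawn UMIs, 3 with the CHOP arm as score, 32 with SLC7A11, SESN2 and DDIT4, 4 without the top 1%, 1 at a ratio of 1.5, and 696 with no floor. Of the 15, 14 were called with the top 5%, 3 with the top 20% (which called 10 genes), 4 on drawn UMIs, 3 with the CHOP arm, 5 with SLC7A11, SESN2 and DDIT4, and 2 without the top 1%. The 2 genes lower became 6, 0 with the top 20%, 1 without the 8% of cells with the most UMIs, 1 within deciles of UMIs, 0 within phases, 0 on drawn UMIs, 1 by mean CPM, 0 with ASNS, PSAT1 and PHGDH, 0 with the CHOP arm, 6 with SLC7A11, SESN2 and DDIT4, 0 at 1.5, 9 at a floor of 5 CPM and 316 with no floor.

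With the top 5%, top 20%, drawn UMIs, the CHOP arm, the SLC7A11 arm and without the top 1%, in that order, cytosolic tRNA synthetases (0.176) moved to 0.226, 0.124, 0.121, 0.083, 0.091 and 0.131, serine and one-carbon enzymes (0.212) to 0.320, 0.172, 0.149, 0.088, 0.152 and 0.143, and other ATF4 and CHOP targets (0.259) to 0.363, 0.161, 0.163, 0.175, 0.177 and 0.160. The last list was also at 0.243 without outlying cells, 0.271 at 10% mitochondrial UMIs, 0.247 without the 8% of cells with the most UMIs and 0.217 with ASNS, PSAT1 and PHGDH. ER genes (-0.047) moved to -0.103 with the top 5%, -0.017 with the top 20%, -0.071 at 10% mitochondrial UMIs, -0.038 within deciles of UMIs, -0.030 within phases, -0.002 on drawn UMIs, -0.032 with SLC7A11, SESN2 and DDIT4 and -0.021 without the top 1%, and turned to 0.051 with the CHOP arm. FYN turned to -0.016 with the CHOP arm. The cause of these shifts was not tested. Transporters, S and G2M genes stayed within the SD of the 2 libraries, a wide range here (0.133, 0.083 and 0.120). Within phases, G2M genes went from 0.125 to 0.010, with TC71 at -0.020. S genes went from -0.103 to -0.043 there, with CHLA9 at 0.002. These lists are therefore not shown to be stable. S and G2M genes also scored the phases, so their move towards even within phases is in part built in. Of 13 settings that choose cells anew or change the level, ATF5 and CARS kept their call in 12, ATF4 in 11 and FYN in 2. Genes under 20 CPM have too few UMIs for a firm ratio, and the count of genes called depends on the depth of each library.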

Other observations

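Gene lists with no place in the account above summed to between 0.968 and 1.05 times the other cells in the high-score cells. Autophagy and lysosome genes summed to 1.00-fold in CHLA9 and 1.01-fold in TC71, with SQSTM1, the autophagy receptor p62, at 0.930 and 1.22. Nucleotide synthesis enzymes summed to 1.00-fold and 0.980-fold, and mitochondrial chaperones and proteases to 0.990-fold and 0.968-fold, with the protease LONP1 at 1.14 and 1.07. Immediate early genes summed to 1.05-fold and 1.03-fold, led by KLF6 at 1.09 and 1.31. Among cyclin D and CDK inhibitor genes, CDKN1B, which encodes the inhibitor p27, was at 1.37 and 1.16 and CCND1, cyclin D1, at 0.947 and 1.00. None of these genes was called in both libraries.

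With the floor at 5 CPM, 21 of 9052 genes were higher in both libraries and 9 lower. The additions are named after their values were seen. The higher ones were HERPUD1, TXNIP, THY1, SRGAP2B, TAPT1 and PPP1R15A. SRGAP2B shares reads with its near-identical SRGAP2 copies, and its level is uncertain. TXNIP, which restrains glucose uptake, stood at 29.4 against 22.1 CPM in CHLA9 and 19.3 against 12.8 in TC71. THY1, a surface glycoprotein, stood at 21.0 against 16.0 and 10.7 against 7.23 CPM. The lower ones were AL844908.1, ALDH6A1, PYCR3, IL17RE, C19orf81, SMG8 and SYNDIG1. PYCR3, an enzyme of proline synthesis like PYCR1, stood at 13.4 against 17.3 CPM, a ratio of 0.774 (0.674 to 0.885), and 4.86 against 6.95 CPM, a ratio of 0.699 (0.462 to 1.02).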
